A study of Mus musculus with 4 samples.

Results

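Glycolytic enzymes, glucose and lactate transporters and genes induced by low oxygen were followed in PDVC57, a transformed keratinocyte line of the mouse. The set holds 36 genes chosen by symbol, out of 22180 genes with an array probe set of their own, and each gene was read from its brightest such probe set. The choice was made with earlier results of these data known. Of the 36 genes, 31 were found, 1 of them (Ero1l) under its current symbol Ero1a. Aldoa, Bnip3l and Ankrd37 stood only on probe sets shared with another gene, and Gpi1 and Eno1 had no probe set of their own in the annotation used, so no values are given for them. The deposited intensities stop at a floor of 20, and 8 of the 31 genes lay there on every array (Slc2a3, Slc16a3, Pfkm, Pfkfb3, Pfkfb4, Eno2, Car9 and Adm). The other 23 genes exceeded the floor somewhere, and 21 of them did so on all 4 arrays.

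Cells were kept in low serum, with murine recombinant oncostatin M (OSM, 10 ng/ml), a cytokine of the interleukin 6 family, or non stimulated (NS). The 4 conditions, OSM for 24 h, NS for 24 h, OSM for 6 h and NS for 6 h, had 1 array each. All arrays come from 1 cell line, and nothing in the sources names separate cultures. Any direct ratio therefore sets 1 array against 1 array, without replicates and without a p-value, and a treatment or a time cannot be told apart from the single dish that stands for it.

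Glycolysis turns glucose into pyruvate, and lactate dehydrogenase turns pyruvate that is not used by mitochondria into lactate. In cells with enough oxygen, prolyl hydroxylases of the Egln family mark the transcription factor subunit Hif1a for destruction. When oxygen is short the Hif1a protein accumulates and binds hypoxia response elements, whose core reads ACGTG or GCGTG. Hif1a then raises the transcription of glucose transporters, glycolytic enzymes, collagen prolyl hydroxylases and genes of mitochondrial turnover. Keratinocytes are known for an active glycolysis.

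The 4 arrays were of like brightness. Between 72.5% and 73.0% of probe sets were at the floor, and the median of probe sets that exceeded it everywhere lay between 92.9 and 96.2. Of 8 keratinocyte markers 7 exceeded the floor, Krt5 being on a shared probe set only, and 20 of 21 markers of fibroblasts, immune cells, endothelial cells and melanocytes were at the floor on every array, with Fbln1 as the exception. Osmr, the OSM receptor subunit and a check of the treatment, read 135 in OSM 24 h, 22.7 in NS 24 h, 121 in OSM 6 h and 21.7 in NS 6 h.

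The differences were mainly between the 24 h and the 6 h arrays. Each of the 23 measured genes was brighter at 24 h, both with OSM and in NS, while among all genes with a ratio 56.7% were brighter at 24 h with OSM and 53.3% in NS. Egln3 and Bnip3 were at the floor on both 6 h arrays and entered only through their 24 h arrays, so they had to be higher at 24 h. The other 21 genes carry no such condition. Their median ratio of 24 h over 6 h was 1.34-fold with OSM and 1.24-fold in NS, against 1.02-fold and 1.01-fold over all genes. For 18 of these 21 genes both 24 h arrays were brighter than both 6 h arrays, an order found in 31.2% of all genes that exceeded the floor everywhere. The exceptions were Hif1a, Hk2 and Pdk1.

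**Figure D1:**
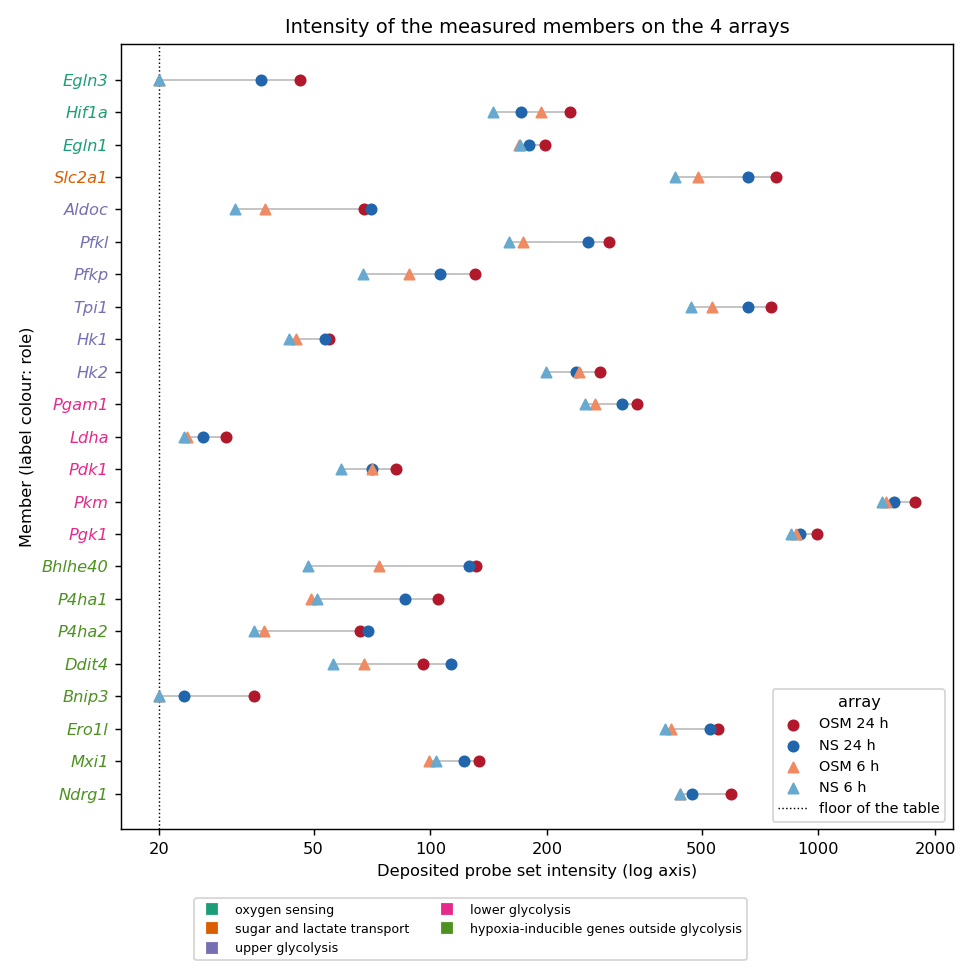
Deposited probe set intensity (horizontal log axis) of the 23 measured genes, 1 row per gene and 1 point per array, with circles for 24 h, triangles for 6 h, red tones for OSM, blue tones for NS and the floor of 20 as a dotted line. For 18 of the 21 genes that exceeded the floor on all arrays both 24 h points lie to the right of both 6 h points, and both 6 h arrays of Egln3 and Bnip3 lie at the floor.

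The plot of intensities shows this gene by gene. Among the 21 genes that exceeded the floor everywhere, 6 were at least 1.5-fold higher at 24 h with OSM, against 1.7% of all such genes, and 8 in NS, against 2.68%. At 2-fold there was 1 with OSM, P4ha1 (0.156%), and 3 in NS, Bhlhe40, Aldoc and Ddit4 (0.635%). With Egln3 and Bnip3, whose direction was fixed, the 1.5-fold counts were 8 of 23 with OSM (all genes 1.89%) and 9 of 23 in NS (all genes 2.87%), and the 2-fold counts 2 (all genes 0.221%) and 3 (all genes 0.732%). No gene of the set was lower at 1.5-fold (all genes 0.49% with OSM and 0.659% in NS) or at 2-fold (0.049% and 0.0488%). Slc2a1, Pfkl, Aldoc, P4ha1, P4ha2 and Bhlhe40, which makes 6 of 21, passed 1.5-fold with OSM and in NS, against 0.92% of all genes that exceeded the floor everywhere. Egln3 makes 7 of 23 (all genes 1.02%).

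**Figure D2:**
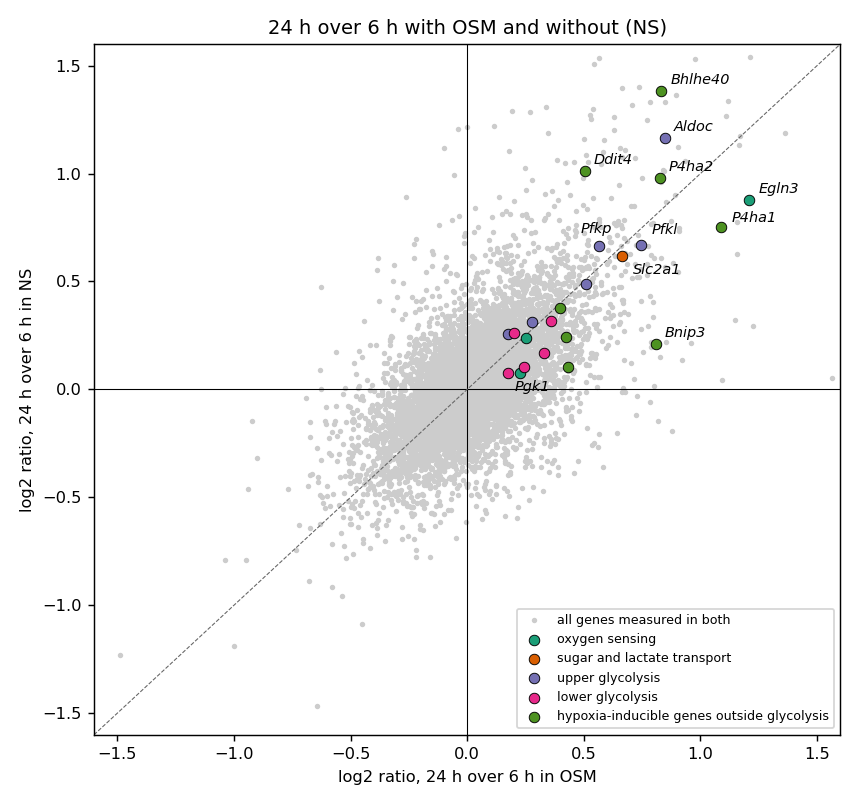
Log2 ratio of 24 h over 6 h with OSM (horizontal axis) and in NS (vertical axis) for the 23 measured genes coloured by role and, in grey, all 8056 genes with both ratios, of which 10 lie outside the axes. All 23 genes are above 0 on both axes.

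The plot of time ratios sets the OSM pair of arrays against the NS pair, which share no array. A test over both treatments was made with limma, which fitted terms for time and for OSM to the 4 arrays and left 1 residual degree of freedom. That residual also holds any difference between the OSM ratios at the 2 times, so the standard errors are not a spread between replicates. At an adjusted p under 0.05 (Benjamini-Hochberg, 8303 genes) the time term called 12 of the 23 genes higher at 24 h and 0 lower, against 5.82% of all genes called higher and 2.76% called lower. The 12 genes were Egln3, Slc2a1, Pfkl, Pfkp, Aldoc, Tpi1, Pgam1, P4ha1, P4ha2, Ddit4, Bhlhe40 and Ero1l, with fitted changes between 1.26-fold and 2.15-fold. Of the 21 genes that exceeded the floor everywhere 11 were called (5.73% of all such genes), or 13 when only such genes were fitted (7.7% of all genes fitted). None of the 23 was called after repeated quantile normalization, without the OSM term, or with any of the 4 arrays left out. All 23 fitted changes were above 0 in each of those fits, but the fits reuse the same arrays and most signs were fixed beforehand. Dropping the OSM term does not alter a fitted change (Aldoc 1.00 on the log2 scale in both fits). Egln3 and Bnip3, at the floor on both 6 h arrays, could only be positive. A gene with both 24 h arrays above both 6 h arrays stays positive whichever array is left out. The signs are therefore not a separate check. With quantile normalization or without the OSM term, at most 1 of all 8303 genes was called.

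**Figure D3:**
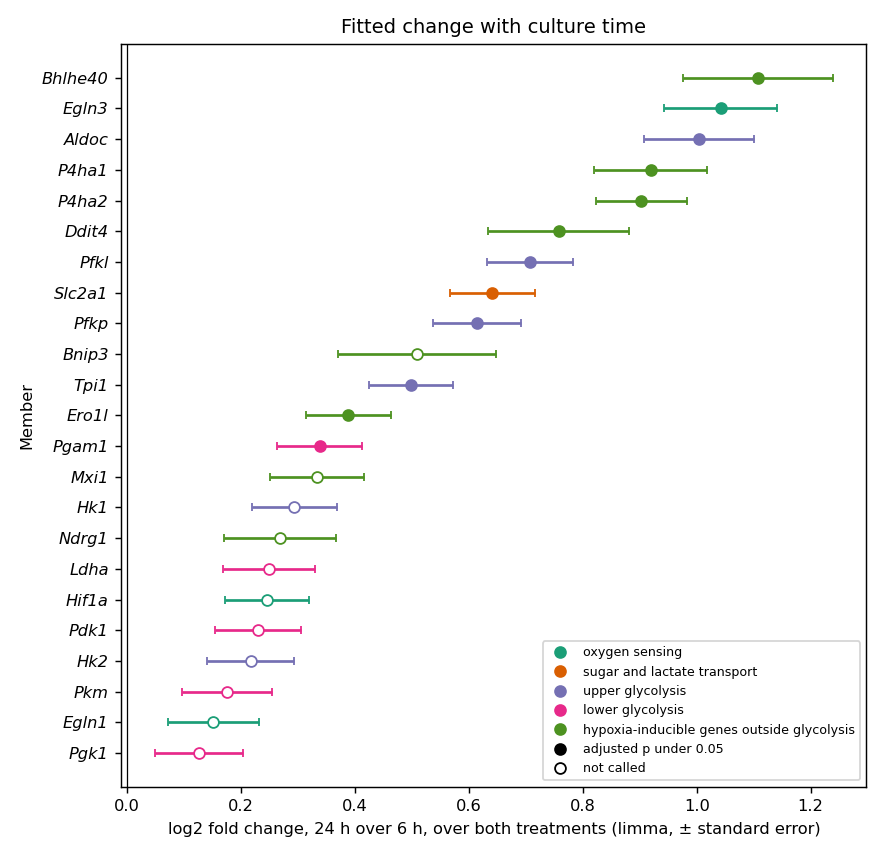
Fitted log2 fold change of 24 h over 6 h across both treatments (horizontal axis) for the 23 measured genes (rows), with bars for the standard error of the limma fit on 4 arrays and filled points for an adjusted p under 0.05. The 12 filled points run between 0.34 for Pgam1 and 1.11 for Bhlhe40, and the 11 open points are above 0 as well.

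The plot of fitted changes is taken up here by role. Of hypoxia-inducible genes outside glycolysis 8 were measured and 5 were called. Bhlhe40, a transcriptional repressor that also takes part in the circadian clock, had an intensity of 131 in OSM 24 h, 126 in NS 24 h, 73.8 in OSM 6 h and 48.3 in NS 6 h. Both 24 h arrays lay above both 6 h arrays, and NS 6 h was the lowest. Its fitted log2 change with time was 1.11 (standard error 0.13, adjusted p = 0.0117 from limma).

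P4ha1 and P4ha2 encode catalytic subunits of the prolyl hydroxylase that stabilises collagen. P4ha1 read 105 in OSM 24 h, 85.9 in NS 24 h, 49.2 in OSM 6 h and 51.0 in NS 6 h. P4ha2 read 66.0 in OSM 24 h, 69.2 in NS 24 h, 37.2 in OSM 6 h and 35.1 in NS 6 h. For both genes the 24 h arrays were bright and the 6 h arrays dim, without overlap. The fitted log2 change was 0.92 (standard error 0.10, adjusted p = 0.0111 from limma) for P4ha1. It was 0.90 (standard error 0.080, adjusted p = 0.00824 from limma) for P4ha2, the lowest adjusted p of the set.

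Ddit4, an inhibitor of the growth kinase complex that holds mTOR, read 95.7 in OSM 24 h, 113 in NS 24 h, 67.5 in OSM 6 h and 56.2 in NS 6 h. The NS 24 h array was the brightest and NS 6 h the dimmest, a ratio of 24 h over 6 h of 1.42-fold with OSM and 2.02-fold in NS (adjusted p = 0.0233 from limma). Ero1l, an oxidase that serves disulfide bond formation in the endoplasmic reticulum, read 551 in OSM 24 h, 524 in NS 24 h, 418 in OSM 6 h and 404 in NS 6 h. Its arrays separated by time (adjusted p = 0.0315 from limma), and a dimmer probe set was higher at 24 h too, by a log2 ratio of 0.63 with OSM and 0.39 in NS.

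Bnip3, which directs mitochondria to autophagy, was near the floor, with 35.0 in OSM 24 h, 23.1 in NS 24 h and the floor value on both 6 h arrays. Its ratio of 24 h over 6 h was at least 1.75-fold with OSM and at least 1.16-fold in NS (adjusted p = 0.0718 from limma). Ndrg1, widely used as a marker of hypoxia, read 595 in OSM 24 h, 473 in NS 24 h, 441 in OSM 6 h and 440 in NS 6 h. The OSM 24 h array stood above the rest and the arrays separated by time, but the time change was not called in the main fit (adjusted p = 0.138 from limma). Mxi1, an antagonist of Myc, read 133 in OSM 24 h, 122 in NS 24 h, 99.4 in OSM 6 h and 103 in NS 6 h. Its arrays separated by time, but it was not called in the main fit (adjusted p = 0.0571 from limma). Mxi1 was called when only genes that exceeded the floor everywhere were fitted (adjusted p = 0.0408 from limma). The same held with a floor of 40 (adjusted p = 0.0339 from limma) and with an intensity trend (adjusted p = 0.0196 from limma). Limma did not call Mxi1 after centring on probe sets above the floor (adjusted p = 0.0604) or repeated quantile normalization (adjusted p = 0.116). The log2 ratio of 24 h over 6 h on a dimmer probe set was 0.43 with OSM and 0.046 in NS for Mxi1.

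Among the genes of oxygen sensing, Egln1 and Egln3 encode prolyl hydroxylases that act on Hif1a, and Egln3 is itself a target of Hif1a. Egln3 read 46.2 in OSM 24 h and 36.7 in NS 24 h and was at the floor on both 6 h arrays. This makes at least 2.31-fold with OSM and at least 1.83-fold in NS. The time term called it, with the floor as its 6 h value (adjusted p = 0.00951 from limma), and the call was lost with a floor of 40 (adjusted p = 0.410). Egln1 read 197 in OSM 24 h, 180 in NS 24 h, 169 in OSM 6 h and 171 in NS 6 h, and its time change of 0.15 on the log2 scale was not called (adjusted p = 0.272 from limma).

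Hif1a read 229 in OSM 24 h, 171 in NS 24 h, 192 in OSM 6 h and 145 in NS 6 h. Its NS 24 h array was below its OSM 6 h array, so the times overlapped. The ratio of 24 h over 6 h was 1.19-fold with OSM and 1.18-fold in NS, and the fitted log2 change with time was 0.25 (standard error 0.074, adjusted p = 0.0911 from limma). These are transcript levels, and the protein was not measured.

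Slc2a1, the glucose transporter GLUT1, read 777 in OSM 24 h, 657 in NS 24 h, 490 in OSM 6 h and 428 in NS 6 h. Both 24 h arrays were above both 6 h arrays, by 1.59-fold with OSM and 1.53-fold in NS. The fitted log2 change was 0.64 (standard error 0.075, adjusted p = 0.0117 from limma). A second probe set of Slc2a1 was at the floor on all arrays, and the average of both put the log2 ratio of 24 h over 6 h at 0.33 with OSM and 0.31 in NS, below 1.5-fold. Slc2a3, another glucose transporter, and Slc16a3, a lactate exporter, were at the floor.

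In upper glycolysis, between glucose and the triose phosphates, 6 genes were measured and 4 were called. Aldoc, an aldolase, read 67.3 in OSM 24 h, 70.3 in NS 24 h, 37.5 in OSM 6 h and 31.4 in NS 6 h, a ratio of 24 h over 6 h of 1.80-fold with OSM and 2.24-fold in NS. Pfkl and Pfkp are isoforms of phosphofructokinase, a main point of control of the pathway. Pfkl read 289 in OSM 24 h, 254 in NS 24 h, 173 in OSM 6 h and 160 in NS 6 h. Pfkp read 131 in OSM 24 h, 106 in NS 24 h, 88.4 in OSM 6 h and 66.9 in NS 6 h. In these genes the dimmer 24 h array was above the brighter 6 h array. Tpi1, triose phosphate isomerase, read 757 in OSM 24 h, 657 in NS 24 h, 532 in OSM 6 h and 469 in NS 6 h, again without overlap. The adjusted p of these 4 genes for time lay between 0.00951 and 0.0185 in limma.

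The hexokinases, which commit glucose to the pathway, were not called in the main fit. Hk1 was 1.21-fold higher at 24 h with OSM and 1.24-fold in NS (adjusted p = 0.0605 from limma). The limma fit called Hk1 when only genes that exceeded the floor everywhere were used (adjusted p = 0.0472) and with a floor of 40 (adjusted p = 0.0355). Limma did not call Hk1 after centring on probe sets above the floor (adjusted p = 0.0718) or with an intensity trend (adjusted p = 0.0832). Hk2 was 1.13-fold and 1.19-fold higher (adjusted p = 0.126 from limma), and its NS 24 h array lay below its OSM 6 h array. Of all the fits made, only the one with an intensity trend called Hk2 (adjusted p = 0.0322 from limma).

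Of the genes that carry triose phosphates to pyruvate and lactate, with Pdk1, 5 were measured. Their time ratios lay between 1.13-fold and 1.28-fold with OSM and between 1.06-fold and 1.24-fold in NS. Pgam1, phosphoglycerate mutase, was the only one of the 5 called, with 342 in OSM 24 h, 312 in NS 24 h, 266 in OSM 6 h and 251 in NS 6 h and a fitted log2 change of 0.34 (standard error 0.075, adjusted p = 0.0438 from limma). A dimmer probe set of Pgam1 read 57.9 in OSM 24 h, 54.2 in NS 24 h, 56.5 in OSM 6 h and 46.4 in NS 6 h, where the times overlapped, and its log2 ratio of 24 h over 6 h was 0.034 with OSM and 0.22 in NS, beside 0.36 and 0.32 for the probe set used. Pgk1, phosphoglycerate kinase and a classical Hif1a target, read 990 in OSM 24 h, 898 in NS 24 h, 878 in OSM 6 h and 850 in NS 6 h. It had the smallest fitted time change of the set, 0.13 (adjusted p = 0.338 from limma). Pkm, pyruvate kinase, read 1773 in OSM 24 h, 1569 in NS 24 h, 1496 in OSM 6 h and 1458 in NS 6 h. Ldha, lactate dehydrogenase, was near the floor, with 29.7 in OSM 24 h, 26.0 in NS 24 h, 23.6 in OSM 6 h and 23.1 in NS 6 h. Pdk1, a kinase that inhibits mitochondrial pyruvate dehydrogenase, read 81.3 in OSM 24 h, 70.6 in NS 24 h, 70.8 in OSM 6 h and 59.0 in NS 6 h. The NS 24 h and OSM 6 h arrays of Pdk1 were level.

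The sequence before the start sites was read for the core of the hypoxia response element. RefSeq windows (build GRCm38.p6) of 250 bases before to 50 bases after the start were found for 28 of the 31 genes, 39 windows in all. The motif ACGTG on either strand, which reads CACGT where it lies on the other strand, stood in 61.5% of them and in 19.6% of all 32851 windows. The genes were picked as glycolytic or hypoxia-inducible, so a higher share can come from that choice, and the arrays play no part in it. Some genes have several windows, and genes at the floor on every array are included. Where both strands match, as CACGTG, the letters are also those of an E-box, which held for 12.8% of windows of the set and 7.15% of all. ACGTG stood in 8 of 12 windows of genes called higher at 24 h and in 10 of 16 windows of measured genes not called. A match describes letters and is not a binding site.

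To show the motif in place, the 250 bases before the start follow for 4 called genes and for Pgk1, which holds the motif and had the smallest time change. They are on the strand of the gene, with the motif in capitals, and lie at chr4:119108495-119108744 (+) for Slc2a1, chr10:59323046-59323295 (+) for P4ha1, chr11:54100674-54100923 (+) for P4ha2, chr12:54203875-54204124 (-) for Egln3 and chrX:106186850-106187099 (+) for Pgk1.
Slc2a1: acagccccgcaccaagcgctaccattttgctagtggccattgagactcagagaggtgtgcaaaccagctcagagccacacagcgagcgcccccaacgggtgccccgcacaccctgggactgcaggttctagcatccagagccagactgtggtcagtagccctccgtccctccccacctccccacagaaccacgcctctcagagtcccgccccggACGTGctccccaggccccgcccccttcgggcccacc
P4ha1: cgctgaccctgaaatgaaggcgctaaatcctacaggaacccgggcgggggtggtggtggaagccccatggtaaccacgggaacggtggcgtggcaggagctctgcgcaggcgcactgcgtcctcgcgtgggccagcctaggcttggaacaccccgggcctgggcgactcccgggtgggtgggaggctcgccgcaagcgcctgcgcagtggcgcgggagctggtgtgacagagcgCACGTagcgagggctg
P4ha2: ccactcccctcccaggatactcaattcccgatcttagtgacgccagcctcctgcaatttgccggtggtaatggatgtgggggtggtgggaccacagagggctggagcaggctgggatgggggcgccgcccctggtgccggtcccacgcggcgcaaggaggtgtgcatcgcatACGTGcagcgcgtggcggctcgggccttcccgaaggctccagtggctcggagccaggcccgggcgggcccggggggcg
Egln3: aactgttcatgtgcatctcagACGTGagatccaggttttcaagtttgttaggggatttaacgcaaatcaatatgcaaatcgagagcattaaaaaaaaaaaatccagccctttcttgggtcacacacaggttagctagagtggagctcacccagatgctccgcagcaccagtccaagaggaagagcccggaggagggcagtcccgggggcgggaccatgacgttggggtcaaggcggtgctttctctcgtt
Pgk1: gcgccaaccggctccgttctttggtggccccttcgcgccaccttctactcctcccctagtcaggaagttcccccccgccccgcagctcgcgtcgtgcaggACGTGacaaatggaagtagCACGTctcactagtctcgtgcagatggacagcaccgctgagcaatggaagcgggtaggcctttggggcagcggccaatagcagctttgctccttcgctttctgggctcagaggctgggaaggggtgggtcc
The motif began at -36 from the start in Slc2a1, -16 in P4ha1 and -229 in Egln3. P4ha2 had matches at -78 and, past the bases shown, at 11 after the start, and Pgk1 at -150 and -131.

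The ratios of OSM over NS were mostly above 1 and under 1.5-fold. With OSM 20 of 23 genes were brighter at 24 h and 18 of 21 at 6 h, against 53.4% and 49.8% of all genes. The median ratio of OSM over NS was 1.14-fold at 24 h and 1.06-fold at 6 h, against 1.01-fold and 1.000-fold over all genes. Set against the average of both NS arrays instead, the median log2 ratio at 6 h was -0.081, in place of 0.087. That average mixes the 2 times, and these genes were brighter at 24 h in NS, so it lowers the 6 h ratio by design. At 1.5-fold 1 gene was higher at 24 h, Bnip3 at 1.51-fold (0.674% of all genes), and 1 at 6 h, Bhlhe40 at 1.53-fold (0.741%). None was lower at 1.5-fold (all genes 0.551% and 0.272%). None reached 2-fold, higher (all genes 0.184% at 24 h and 0.148% at 6 h) or lower (0.147% and 0.0123%). The OSM term of limma called 0 of 23 genes (7 higher at an unadjusted p under 0.05, against 6.71% of all genes higher and 4.64% lower), against 0.241% of all genes called higher and 0.0% lower, and with an intensity trend in the fit it called 1, Hif1a. A p that misses the threshold does not show that OSM left these genes at their level.

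**Figure D4:**
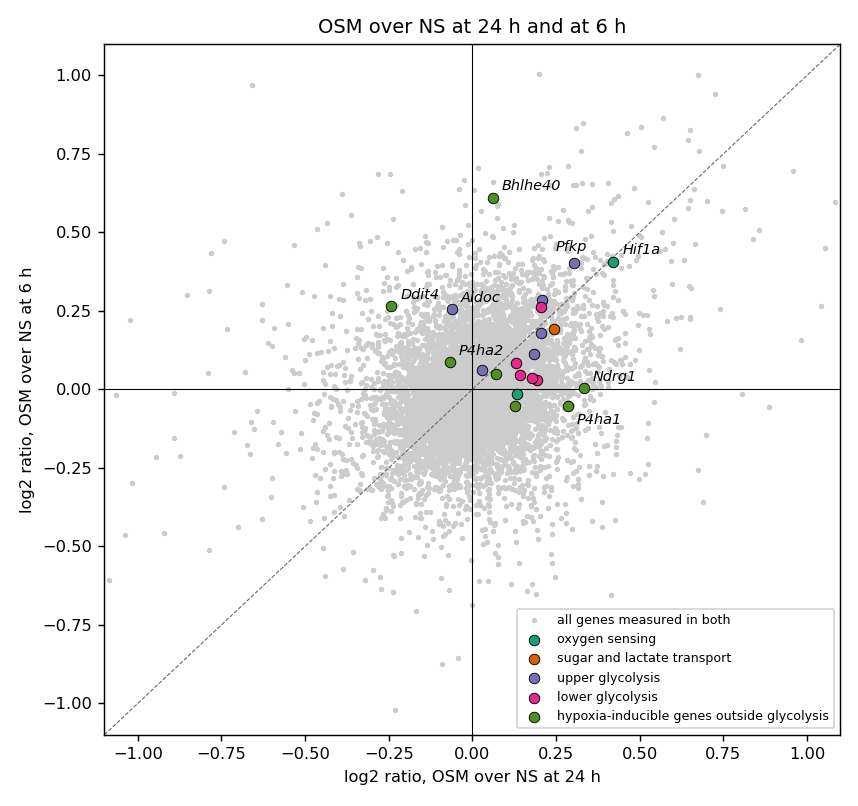
Log2 ratio of OSM over NS at 24 h (horizontal axis) and at 6 h (vertical axis) for the 21 genes of the set with both ratios, coloured by role, and in grey all 7962 genes with both, of which 20 lie outside the axes. Hif1a lies at 0.42 and 0.41, Bhlhe40 at 0.060 and 0.61, and Ddit4 at -0.24 and 0.27, for 24 h and 6 h.

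In the plot of OSM ratios Hif1a stood near the line of equal ratios, with 1.34-fold at 24 h and 1.33-fold at 6 h. Both of its OSM arrays were above both NS arrays, which held for 3 of 21 genes, the others being Hk2 and Pdk1. That share is no larger than the 14.3% of all genes that exceeded the floor everywhere. The fitted log2 change of Hif1a with OSM was 0.41 (standard error 0.074, adjusted p = 0.128 from limma), the lowest adjusted p of the set for this term. Pfkp was 1.23-fold higher with OSM at 24 h and 1.32-fold at 6 h (adjusted p = 0.198 from limma). For Bhlhe40 the 24 h arrays gave 1.04-fold and the 6 h arrays 1.53-fold. For Ndrg1 the 24 h arrays gave 1.26-fold and the 6 h arrays 1.00-fold. Whether the OSM ratio differed between the times was not tested, since no residual is left for it.

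Further genes of these pathways were read from lists outside the set. Those lists, too, were chosen with earlier results of these data known, so their counts are not independent support. Of 30 other hypoxia-inducible genes 19 were measured. The limma time term called 9 higher at 24 h and 0 lower, against 5.82% and 2.76% of all genes. The 9 were Vegfa, Kdm3a, Fam162a, Plod2, Ccng2, Wsb1, Tfrc, Zfp395 and Maff. Maff was at the floor in NS 6 h and near it elsewhere, between 23.9 and 29.1. The median fitted change of the 19 was 1.30-fold, beside 1.31-fold for the 23 and 1.02-fold for all genes. For the 21 genes of the set that exceeded the floor everywhere it was 1.26-fold. Ccng2, an unusual cyclin linked to growth arrest, read 61.1 in OSM 24 h, 54.6 in NS 24 h, 33.1 in OSM 6 h and 36.3 in NS 6 h. Vegfa, the angiogenic growth factor, read 189 in OSM 24 h, 201 in NS 24 h, 149 in OSM 6 h and 139 in NS 6 h. Both separated by time. Ak4, a mitochondrial adenylate kinase, read 47.7 in OSM 24 h, 23.0 in NS 24 h, 37.2 in OSM 6 h and 27.2 in NS 6 h. Hmox1, heme oxygenase, read 267 in OSM 24 h, 130 in NS 24 h, 180 in OSM 6 h and 150 in NS 6 h. For both genes the OSM arrays were above the NS arrays. Angptl4, an inhibitor of lipoprotein lipase, read 49.2 in OSM 24 h, 42.8 in NS 24 h, 48.1 in OSM 6 h and 24.0 in NS 6 h, and only its NS 6 h array was low. These genes passed 2-fold for OSM over NS, Ak4 and Hmox1 at 24 h (2 of 18, all genes 0.184%) and Angptl4 at 6 h (1 of 19, all genes 0.148%). The NS arrays behind the ratios of Ak4 and Angptl4, at 23.0 and 24.0, lay near the floor.

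Of 15 other glycolysis genes 6 were measured, and limma called 0 for time (0 at an unadjusted p under 0.05, which 17.2% of all genes passed as higher and 10.8% as lower). With 5.82% of all genes called higher and 2.76% lower, a count of 0 in 6 genes is near the background. Gapdh, the dehydrogenase that follows the triose phosphates, read 2314 in OSM 24 h, 2234 in NS 24 h, 2231 in OSM 6 h and 2092 in NS 6 h. Of 8 other regulators of the HIF pathway 6 were measured and 0 were called, again near the background. At an unadjusted p under 0.05 from limma 2 of the 6 were higher, beside 17.2% of all genes. Of these 2, 1 was at the floor on both 6 h arrays and had to be higher at 24 h. Of 25 genes of mitochondrial pyruvate use, the tricarboxylic acid cycle and the pentose phosphate pathway 21 were measured, 0 were called higher and 1 was called lower at 24 h, beside the 2.76% of all genes called lower. The gene was Mpc1, a subunit of the mitochondrial pyruvate carrier, which read 140 in OSM 24 h, 147 in NS 24 h, 184 in OSM 6 h and 211 in NS 6 h, with a fitted log2 change of -0.46 (standard error 0.079, adjusted p = 0.0250 from limma). The plot of the lists sets these fitted changes beside those of the set, and the difference between the lists was not tested.

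**Figure D5:**
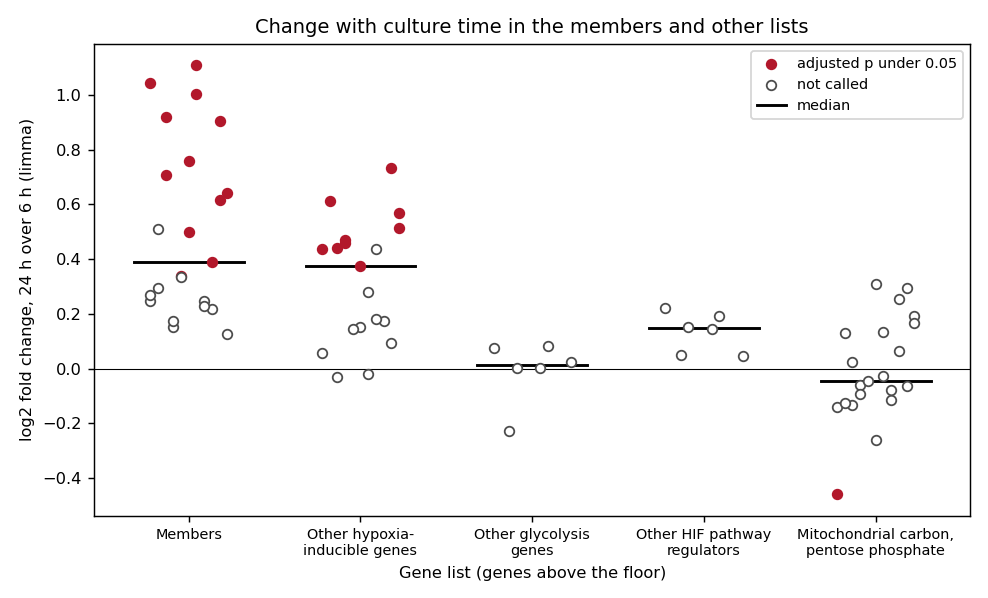
Fitted log2 fold change of 24 h over 6 h (vertical axis, limma over both treatments) for the measured genes of the set and of 4 other lists, 1 point per gene, red where the adjusted p was under 0.05, with a bar at the median of each list. The genes called are 12 of 23 in the set, 9 of 19 other hypoxia-inducible genes, 0 of 6 in the glycolysis and in the regulator list, and Mpc1 below 0 among 21 mitochondrial and pentose phosphate genes.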

How the data were processed

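Intensities of 4 Affymetrix arrays, 1 per condition, were deposited by the authors on a linear scale. According to the submitters' notes, Expression Console made them; version, summary method, normalization and build are not given in the sources used. No deposited value lies below 20, which was taken as a floor. The paper linked to the series describes other cells and arrays. Of 41345 probe sets 23521 were paired with 1 gene by the platform annotation, 22180 genes in all, and the brightest on average stood for its gene. Ero1l was matched through RefSeq synonyms.

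Ratios set 1 array against 1 array. They were not formed where both lay at the floor. Where 1 did, the ratio is a bound, a lower one with the floor in the denominator and an upper one with it in the numerator. The two-sided test was limma 3.58.1 (R 4.3.3) on log2 intensities of the 8303 genes that exceeded the floor somewhere, with terms for time and OSM, 1 residual and 5.49 prior degrees of freedom, tested on simulated data first. Its p-values reflect the spread between these arrays alone, possibly a technical one, and the number of arrays limits precision.

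The genes of the set and the other lists were chosen with earlier results of these data known. All genes of the set could be named, and of the other lists those past 1.5-fold in a comparison; Gapdh and genes called by limma were added after their values were seen. Alternatives covered the floor, normalization, probe set averaging, filters, the control, the threshold and the model terms, with each array left out in turn.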

Additional observations from a re-analysis of the deposited data

Results flagged for a closer look

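Ddit4 had OSM ratios of opposite sign at the 2 times: the log2 ratio of OSM over NS was -0.24 at 24 h and 0.27 at 6 h. Each rests on 1 array per condition, and the difference was not tested. A dimmer probe set of Ndrg1, outside the comparisons, had a log2 ratio of OSM over NS of 0.39 at 24 h, beside 0.33 for the probe set used. A dimmer probe set of Pgam1 had 0.29 at 6 h, beside 0.085 for the probe set used.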

How the results depend on the processing

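Of the 23 measured genes the limma time term called 12. It called 12 after centring on probe sets that exceeded the floor, 13 of 21 with a floor of 40, 13 of 21 when only genes measured everywhere were fitted, and 17 with an intensity trend. It added Hk1 and Mxi1 with a floor of 40 and for genes measured everywhere, and Bnip3, Hif1a, Hk2, Mxi1 and Ndrg1 with the trend. It called 0 with repeated quantile normalization (lowest adjusted p of the set 0.0611 in limma), 0 without the OSM term (lowest adjusted p 0.0571 in limma) and from 0 to 0 with each array left out, where time was the only term; the cause was not tested. Over all genes it called 483 higher and 229 lower, 495 and 423 after centring, 565 and 308 with a floor of 40, 594 and 323 for genes measured everywhere, 901 and 480 with the trend, 1 and 0 with quantile normalization, and 0 without the OSM term or with any array left out. The OSM term called 20 higher and 0 lower over all genes, 41 and 8 after centring, 35 and 5 with a floor of 40, 41 and 5 for genes measured everywhere, 106 and 26 with the trend, and 1 and 0 with quantile normalization or without the time term. Of the 23 genes it called 1 with the trend.

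At 1.5-fold in place of 2-fold, 8 genes of the set in place of 2 were higher at 24 h with OSM, 9 in place of 3 in NS, and 1 in place of 0 with OSM over NS at each time. With a floor of 40, and among genes measured everywhere, 1 gene was 2-fold higher at 24 h with OSM, since Egln3 no longer counted. Setting each OSM array against the average of the NS arrays moved the median log2 ratio to 0.39 for 24 h and -0.081 for 6 h, in place of 0.19 and 0.087. That average mixes the 2 times, so the change with time enters both of these ratios. Averaging probe sets took the OSM ratios of Hif1a to 0.21 at 24 h and 0.20 at 6 h, and that of Pdk1 at 6 h to 0.13. It took the time ratios of Slc2a1 to 0.33 with OSM and 0.31 in NS. Each of these genes has a second probe set at the floor. The same averaging took the time ratio of Pgam1 with OSM to 0.20. No paired analysis was possible because each condition has 1 array, which leaves no replicates to pair. Intensities near the floor, as of Ldha, Bnip3 and Egln3, and of Ak4 and Angptl4 outside the set, limit what can be measured.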
